A study of Homo sapiens with 6 samples.

Results

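Mitochondrial ribosomal proteins were taken as every gene of the count table whose symbol is MRPL or MRPS followed by a number and at most 1 letter. This rule used names only and found 77 of 26485 genes, of which 76 had enough reads to be tested among 13562 tested genes. The 6 libraries hold poly(A) RNA of HCC38, a human breast ductal carcinoma line that is triple-negative and of basal-like type by its labels. As controls served a mock library and 1 library for each of the non-targeting siRNAs SCR#2 and SCR#3, while the silenced group held 1 library each for siCIP2A#1, siCIP2A#2 and siCIP2A#3. These are different siRNAs against CIP2A, an inhibitor of the phosphatase PP2A. All siRNAs were delivered with Oligofectamine. The labels differ on the mock, which is given both as cells with transfection reagent and no siRNA and as cells not transfected. Separate cultures are not mentioned for any group, and each p-value below therefore rests on the scatter among these libraries, which may be technical.

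The mitochondrial ribosome translates the messages of mitochondrial DNA, which encode core subunits of the respiratory chain and of ATP synthase. Its ribosomal RNAs are made inside the organelle, while all of its proteins are encoded in the nucleus and imported. The small subunit decodes the message and the large subunit forms the peptide bond. Some of the proteins have bacterial counterparts, and others occur only in mitochondria. By these roles the members fell into 26 small subunit proteins (16 with a bacterial counterpart and 10 mitochondrion-specific), 50 large subunit proteins (30 and 20), and MRPS36. MRPS18A and MRPS30 keep small subunit names but sit in the large subunit. MRPS36 is named KGD4 in RefSeq and is now assigned to the oxoglutarate dehydrogenase complex.

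Library totals ran from 13995187 to 18161451 reads, so that 3 reads, the upper limit that a count of 0 allows by counting error alone, corresponded to 0.162 to 0.218 CPM (reads relative to the library total, scaled with TMM factors). Members held between 0.459% and 0.486% of all reads, with the highest share in the mock. Of 4 basal markers, EGFR lay between 73.0 and 84.4 CPM, while the keratins KRT5, KRT14 and KRT17 had at most 1 read in any library. Of 4 luminal markers, ESR1 and PGR, the hormone receptors that triple negative cells lack, had at most 6 and 2 reads. GATA3 had 9 to 17 reads and FOXA1 had 18 to 26 (1.16 to 1.60 CPM). Of 4 epithelial markers, the keratins KRT8 (252 to 439 CPM) and KRT18 (395 to 708 CPM) were abundant, while EPCAM and CDH1 stayed at or under 1.22 CPM. Of 4 leukocyte markers, PTPRC had 0 reads in every library, CD3E and LYZ had at most 3, and CD79A had 6 to 20. Of 4 endothelial markers, CDH5 had 0 reads and CLDN5 at most 1, while VWF had 7 to 20 and PECAM1 had 44 to 115 (3.00 to 6.22 CPM). Of 4 fibroblast markers, COL1A1 had 68 to 266 reads (4.61 to 14.4 CPM), and COL1A2, DCN and PDGFRB stayed at or under 2.38 CPM. The part of these markers in the values of the members was not tested. In such bulk RNA, fewer cells of a type and less RNA per cell cannot be told apart. CIP2A itself stood at 98.9 CPM in the mock, 99.8 with SCR#2 and 103 with SCR#3, against 16.3 with siCIP2A#1, 45.8 with siCIP2A#2 and 19.3 with siCIP2A#3. It fell with each siRNA (edgeR quasi-likelihood test, Benjamini-Hochberg adjusted p = 0.000241, 0.0165 and 0.000468), and siCIP2A#2 left the most. Over all 3 siRNAs its log2 difference was -1.90 (SE 0.30) and was not called (edgeR adjusted p = 0.708).

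The transcripts of the mitochondrial ribosome were abundant in all libraries, and their levels spanned a wide range. Per kilobase of the longest protein-coding transcript, their median in the controls was 35.9 CPM, against 8.72 CPM per kb for all 12955 tested genes with a known transcript, and 69 of 76 lay above that value. The median was 39.0 CPM per kb for the small subunit and 33.5 for the large subunit. Proteins with bacterial counterparts had medians of 42.2 in the small and 38.0 in the large subunit, against 30.3 and 26.8 for the mitochondrion-specific proteins. No test was made between these groups, whose ranges overlapped widely.

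Gene positions are given on GRCh38.p14 from RefSeq. MRPL51 (chr12:6491886-6493262, minus strand), a mitochondrion-specific protein of the large subunit, had the highest level at 173 ± 10.1 CPM per kb (SD, n = 3 controls). MRPL18, a protein of the central protuberance of the large subunit, followed with 126 ± 5.78, and MRPS18B of the small subunit with 125 ± 8.39. MRPL15 (112 ± 3.06) and MRPL3, which reaches towards the peptidyl transferase centre (109 ± 2.49), came next. MRPL51 did not overlap with any other member over the controls, whereas MRPL18 overlapped with MRPS18B and MRPL15 with MRPL3. At the low end, MRPL23 (chr11:1947332-2014944, plus strand), a protein at the exit of the peptide tunnel, stood at 3.26 ± 0.544 CPM per kb, under all other tested members in each control. Above it came MRPL42 (5.36 ± 0.313), MRPL55 (6.14 ± 1.03), MRPS33 (6.88 ± 0.267) and MRPS25 (7.13 ± 0.290), and these neighbours overlapped. The order depended on the length used. MRPL42 has an annotated transcript of 15582 bases, and per kilobase of coding sequence it reached 179.7 CPM. Of the 5 highest and 5 lowest members, 3 and 2 kept that place when the coding length was used.

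**Figure D1:**
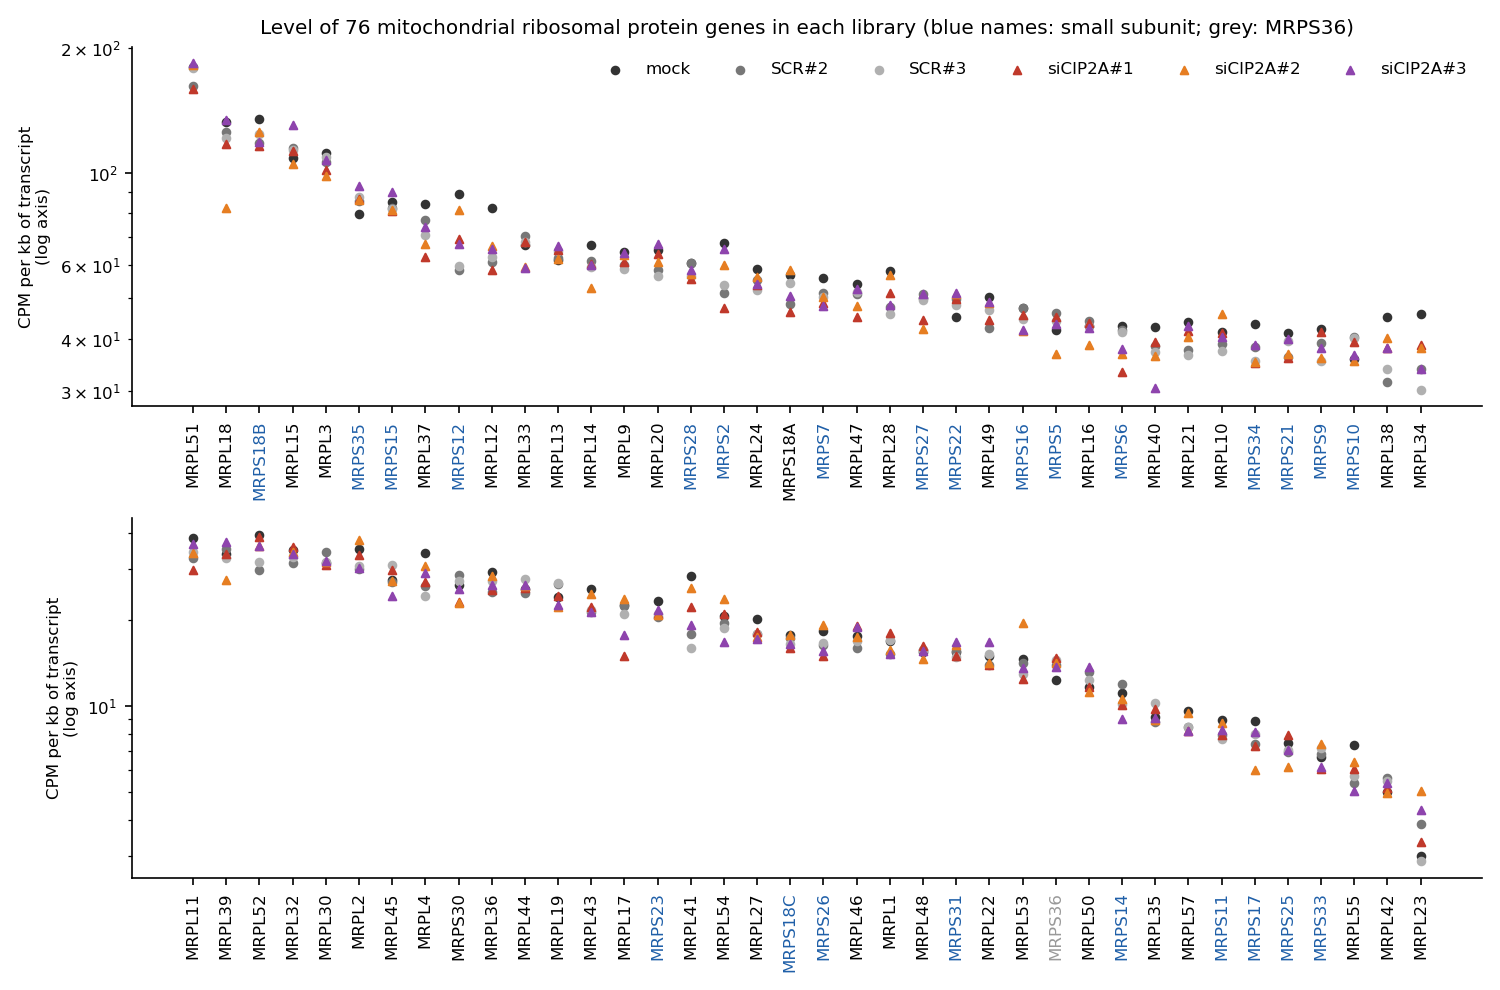
Level of each of the 76 tested members in the 6 libraries, as CPM per kilobase of the longest protein-coding transcript on a log axis, in order of the control mean. Points are single libraries (circles for controls, triangles for CIP2A siRNAs), and the order runs from MRPL51 at 173 to MRPL23 at 3.26 CPM per kb, with MRPL18 standing apart in 1 library, siCIP2A#2.

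MRPS24 (chr7:43866558-43869517, minus strand), a small subunit protein with a bacterial counterpart, was the only member not tested. It had 1 read in each of the libraries SCR#3, siCIP2A#1 and siCIP2A#3 and 0 reads in the other 3. In GENCODE 29, 92.2% of its coding bases are shared on the same strand with the readthrough gene URGCP-MRPS24, whose own row had 0 reads in every library. URGCP had between 34.3 and 45.5 CPM. How reads in shared exons had been counted is not given in the sources used here, and its part in this value was not tested. Other members share most of their coding bases in the same way: MRPL53 with CCDC142, and MRPS17, MRPL12, MRPL30, MRPL38, MRPL46 (64.0%) and MRPS28 (53.0%) with overlapping genes that have only clone-based names. Whether this sharing affected their counts is not known, and its part in their values was not tested. MRPS6 shares 49.3% of its coding bases, with SLC5A3 among others.

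The stretches before the transcription start were compared for 4 short motifs, since sequences shared by the members were not used to choose them. Of the 77 members, 69 had an entry in the RefSeq promoter table of GRCh38.p14 (250 bases before to 50 after the start). MRPL2, MRPL10, MRPL13, MRPL15, MRPL21, MRPL23, MRPL35 and MRPS28 had none. Both strands were searched, and a gene with several annotated starts counted once if any of its windows held the string. AAGATGGCG, the letters bound by YY1, occurred in 13 of 69 members (18.8%), against 4.67% of 10614 promoters of tested genes and 2.14% of 27305 promoters in all. CGGAAG, the core bound by ETS factors such as GABPA, occurred in 37 members (53.6%), against 38.1% of tested genes and 22.6% of all. The NRF1 string, which is GCGC, any 2 bases and GCGC again, occurred in 10 members (14.5%), against 18.7% of tested genes and 9.98% of all. TATAAA, the TATA box, occurred in 4 members (5.80%), against 8.35% and 14.0%. At least 1 of the ETS, YY1 and NRF1 strings was present in 50 of 69 members, a share that was not counted over all tested genes. Each string was counted by itself, also where matches of different strings overlapped, and a match describes the sequence and does not show binding.

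The YY1 letters often sat at the first codon. In 10 of the 13 members they lay after the transcription start, against 65.9% of the 496 tested genes that have them. In 9 of the 13 the ATG inside the string is an annotated first codon, which was not looked up for the other tested genes. The following stretches, from 20 bases before to 25 after the start and read 5′ to 3′ on the strand of the gene, show 5 of the 13 members, with the YY1 letters in capitals. In MRPL42 the ATG of the string is not an annotated first codon, and in the other 4 it is. They are MRPS10 (chr6:42217837-42217881, minus strand), MRPS30 (chr5:44808927-44808971, plus strand), MRPL38 (chr17:75904860-75904904, minus strand), MRPL42 (chr12:93467494-93467538, plus strand) and MRPL46 (chr15:88467364-88467408, minus strand), from RefSeq on GRCh38.p14.
MRPS10: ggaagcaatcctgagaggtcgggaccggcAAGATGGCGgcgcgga
MRPS30: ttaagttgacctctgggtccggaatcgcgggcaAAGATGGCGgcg
MRPL38: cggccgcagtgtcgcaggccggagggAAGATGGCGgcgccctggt
MRPL42: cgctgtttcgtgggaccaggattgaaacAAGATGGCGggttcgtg
MRPL46: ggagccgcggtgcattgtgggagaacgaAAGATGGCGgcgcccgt
These 5 are among the members named here for their own values, in different directions, so their levels do not describe the 13 as a set. MRPS30 was lower with all 3 siRNAs, MRPL46 was not, and MRPL38 was highest in the mock while MRPL42 and MRPS10 were lower there than with either non-targeting siRNA.

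The members of smallest p with siCIP2A#1 and siCIP2A#2 carried other strings. MRPL17 has the NRF1 letters, shown in capitals in the 120 bases before its start (chr11:6683341-6683460, minus strand). MRPL18 has the ETS core, shown in capitals in the 60 bases before its start (chr6:159789752-159789811, plus strand), and is also 1 of the 4 members with TATAAA, which lies in the window of another of its annotated starts. Both are from RefSeq on GRCh38.p14 and are read 5′ to 3′.
MRPL17: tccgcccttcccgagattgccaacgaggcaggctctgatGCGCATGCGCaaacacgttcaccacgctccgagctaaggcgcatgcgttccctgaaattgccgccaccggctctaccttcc
MRPL18: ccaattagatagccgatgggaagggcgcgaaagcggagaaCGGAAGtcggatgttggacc
The MRPL18 stretch also separates its start from that of TCP1, a subunit of the cytosolic chaperonin, which begins 63 bases away on the other strand. In GENCODE 29, 17 of 77 members (22.1%) have a divergent gene start within 1000 bases, against 9.75% of 12106 tested protein-coding genes. MRPL46 and MRPS11 form such a pair with each other, 34 bases apart. MRPL36 faces NDUFS6 and MRPL47 faces NDUFB5, and both partners encode subunits of respiratory complex I.

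The main comparison set the 3 CIP2A siRNAs against the 3 controls and asked whether silencing CIP2A moved this gene group. No member passed: edgeR called 0 of 76 members, beside 0% of all 13562 tested genes, and DESeq2 and limma-voom also called 0 members. The edgeR fit did not call CIP2A itself either (log2 difference -1.90, edgeR adjusted p = 0.708). The absence of calls therefore says little by itself about the size of a change. At an unadjusted p under 0.05, edgeR gave 1 member (1.32%), against 2.72% of all tested genes. The median log2 difference over the members was -0.02, with 30 above and 46 below 0. Over all tested genes the median was -0.0011, with 50.3% below 0. Single values ran from -0.23 for MRPS6 to 0.37 for MRPL23. For 75 of 76 members the 95% interval of the difference lay within a 1.5-fold change in either direction, as it did for 10342 of 13562 tested genes. MRPL23, with 38 to 72 reads per library, was the exception.

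**Figure D2:**
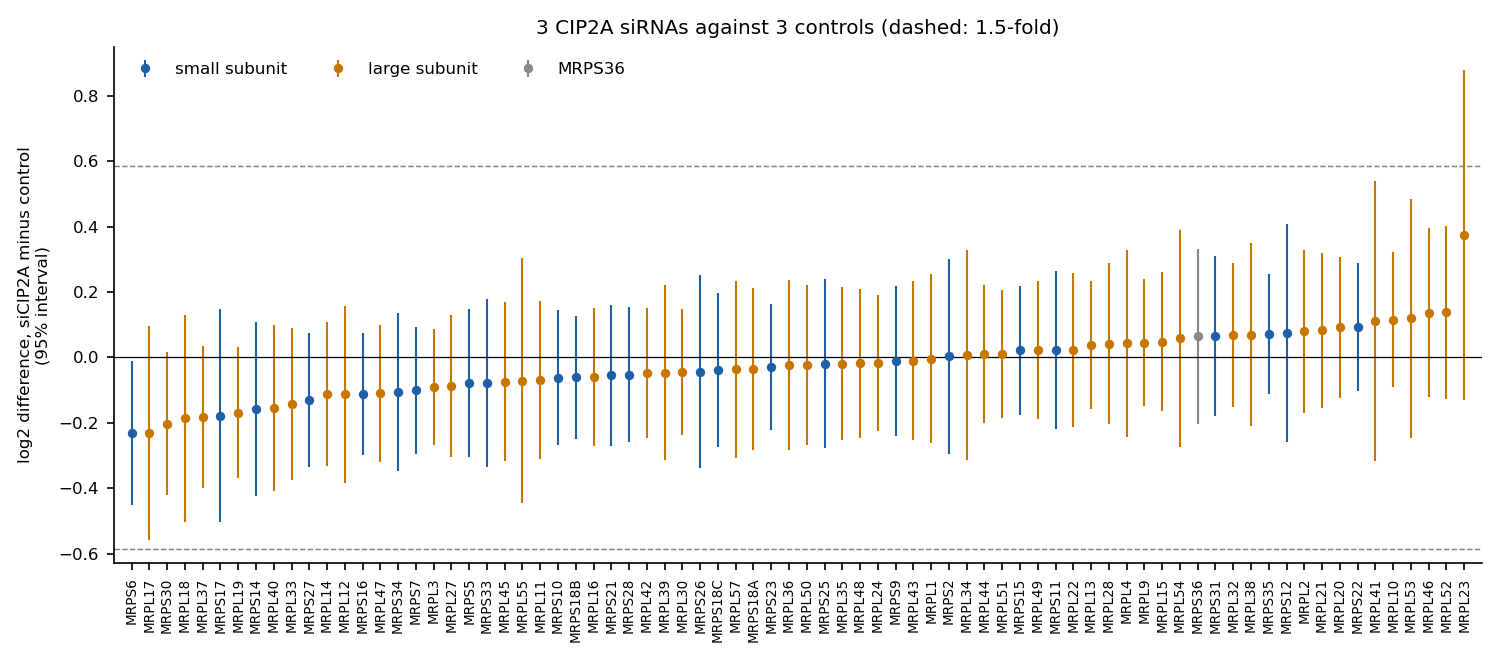
Log2 difference between the 3 CIP2A siRNAs and the 3 controls for each of 76 members in order of size, with 95% intervals from edgeR and dashed lines at a 1.5-fold change. The values run from -0.23 (MRPS6) to 0.37 (MRPL23), and the interval of 1 member, MRPL23, reaches past the upper dashed line.

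Small subunit members had a median log2 difference of -0.05, with 18 of 25 below 0. The median was -0.05 for the 15 tested proteins with bacterial counterparts and -0.04 for the 10 mitochondrion-specific proteins. MRPS6 (chr21:34073578-34143030, plus strand), which sits at the platform of the small subunit, stood at 42.4 CPM in the mock, 41.6 with SCR#2 and 41.2 with SCR#3, against 32.9 with siCIP2A#1, 36.4 with siCIP2A#2 and 37.4 with siCIP2A#3. All siRNA libraries lay below all controls. Its log2 difference of -0.23 (SE 0.10) had the smallest p of all members (unadjusted p = 0.0414, edgeR adjusted p = 0.999). SLC5A3, which shares coding bases with it, had a log2 difference of 0.17 (SE 0.11). MRPS27, an RNA-binding protein with pentatricopeptide repeats, had a log2 difference of -0.13 (SE 0.09), and its 3 controls, between 138 and 143 CPM, lay above siCIP2A#1 and siCIP2A#2 but not above siCIP2A#3. MRPS22, mutated in inherited respiratory chain disease, had a mean of 73.7 ± 3.77 CPM over the controls, against 78.6 ± 1.23 CPM over the siRNAs (SD, n = 3 each). Its log2 difference was 0.09 (SE 0.09), and its groups did not overlap.

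Large subunit members had a median log2 difference of -0.02, with 28 of 50 below 0. The median was -0.02 for the 30 proteins with bacterial counterparts and -0.01 for the 20 mitochondrion-specific proteins. MRPS30 (chr5:44808947-44815514, plus strand), also known as programmed cell death protein PDCD9, stood at 44.4 CPM in the mock, 48.1 with SCR#2 and 45.9 with SCR#3, and at 38.8, 38.4 and 43.1 CPM with siCIP2A#1, siCIP2A#2 and siCIP2A#3. The controls again lay above all siRNA libraries, with a log2 difference of -0.20 (SE 0.10, edgeR adjusted p = 0.999). Groups did not overlap for 1 member above the controls (MRPS22) and 2 below them (MRPS6 and MRPS30), beside 3.24% and 4.4% of all tested genes, or 7.65% in both directions together.

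Other members on the lower side overlapped with the controls. MRPL37, a mitochondrion-specific protein, had a log2 difference of -0.18 (SE 0.10), MRPL19 of -0.17 (SE 0.09) and MRPL17 of -0.23 (SE 0.15). On the higher side, MRPL10 of the stalk had a log2 difference of 0.11 (SE 0.09), MRPL46 of 0.14 (SE 0.12), MRPL52 of 0.14 (SE 0.12) and MRPL20 of 0.09 (SE 0.10). MRPL23 stood at 2.77, 3.57 and 2.65 CPM in the mock, SCR#2 and SCR#3 and at 3.09, 4.65 and 4.01 CPM with siCIP2A#1, siCIP2A#2 and siCIP2A#3, so that siCIP2A#1 lay within the controls. None of these passed, each with an edgeR adjusted p of 0.999.

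Each siRNA was then set against the 3 controls, in a fit with 2 residual degrees of freedom, both from the spread of the controls. No member was called for any siRNA, beside 0.118%, 0.0737% and 0.00737% of all tested genes for siCIP2A#1, siCIP2A#2 and siCIP2A#3. At an unadjusted p under 0.05, edgeR gave 3, 6 and 2 members (3.95%, 7.89% and 2.63%), against 9.95%, 11.6% and 8.22% of all tested genes. The median log2 difference of the members was -0.04, -0.02 and -0.02. DESeq2 called 0, 1 and 0 members, the 1 being MRPL18, beside 0.553%, 0.45% and 0.214% of all tested genes. The 3 comparisons share their controls, so their values are given side by side and not as independent results.

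With siCIP2A#1 the smallest p among members was that of MRPL17 (chr11:6680385-6683340, minus strand), a large subunit protein near the end of the peptide tunnel. It stood at 44.5 CPM in the mock, 44.0 with SCR#2 and 41.1 with SCR#3, against 29.3 with siCIP2A#1, 46.6 with siCIP2A#2 and 34.8 with siCIP2A#3. The siRNAs thus lay on both sides of the controls, with siCIP2A#1 lowest and siCIP2A#2 highest of all libraries. The log2 difference was -0.56 with siCIP2A#1 (SE 0.13, edgeR adjusted p = 0.183), 0.11 with siCIP2A#2 (SE 0.12) and -0.31 with siCIP2A#3 (SE 0.12). With offsets for GC content and length, edgeR called MRPL17 lower with siCIP2A#1 (log2 difference -0.52, adjusted p = 0.0141). That fit called a larger share of all tested genes than of members. Without offsets, MRPS6 (-0.34, SE 0.12) and MRPL37 (-0.30, SE 0.12) followed with siCIP2A#1. On the higher side, MRPL52 had a log2 difference of 0.21 with siCIP2A#1, MRPL46 of 0.18 and MRPS25 of 0.15, and none passed.

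With siCIP2A#2 the smallest p among members was that of MRPL18 (chr6:159789812-159798429, plus strand). Its level was 129.9 CPM in the mock, 122 with SCR#2 and 119 with SCR#3, against 115 with siCIP2A#1, 80.6 with siCIP2A#2 and 131 with siCIP2A#3. The siCIP2A#2 library stood alone, since the other 5 lay between 115 and 131 CPM. The log2 difference with siCIP2A#2 was -0.62 (SE 0.11, edgeR adjusted p = 0.141), which DESeq2 called (adjusted p = 0.0101), as did edgeR with no filter (adjusted p = 0.0129) and with GC and length offsets (adjusted p = 0.00425). The fit with offsets called a larger share of all tested genes than of members. For MRPL18 the log2 difference without offsets was -0.11 (SE 0.11) with siCIP2A#1 and 0.08 (SE 0.10) with siCIP2A#3. TCP1, which starts 63 bases away on the other strand and was looked up after these values were seen, stood at 825 CPM with siCIP2A#2, within its controls (808 to 860.4 CPM). With siCIP2A#1 and siCIP2A#3 TCP1 stood at 768 and 726 CPM, below its controls. CIP2A itself was reduced least by siCIP2A#2. The part of TCP1 or of CIP2A in the value of MRPL18 was not tested.

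MRPL53 (chr2:74471982-74472680, minus strand), a small mitochondrion-specific protein, was high with siCIP2A#2 alone. It stood at 17.0, 16.5 and 15.1 CPM in the mock, SCR#2 and SCR#3, and at 14.5, 22.6 and 15.7 CPM with siCIP2A#1, siCIP2A#2 and siCIP2A#3. The log2 difference with siCIP2A#2 was 0.48 (SE 0.15, edgeR adjusted p = 0.324). CCDC142, which holds all coding bases of MRPL53 and was looked up for that reason, was also highest with siCIP2A#2 (15.6 CPM, against 12.3 to 14.0 in the other libraries). MRPL39 had a log2 difference of -0.31 (SE 0.12) with siCIP2A#2, MRPS27 of -0.25 (SE 0.10), MRPL10 of 0.23 (SE 0.11) and MRPL23 of 0.62 (SE 0.26), and none passed. The value of MRPL23 was slightly larger in size than that of MRPL18, with a wider SE.

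With siCIP2A#3 the smallest p among members was that of MRPL40 (chr22:19432545-19436075, plus strand), a mitochondrion-specific protein of the large subunit. It stood at 59.1 CPM in the mock, 53.4 with SCR#2 and 51.5 with SCR#3, against 54.5 with siCIP2A#1, 50.5 with siCIP2A#2 and 42.2 with siCIP2A#3. The last was the lowest of the 6 libraries, and siCIP2A#1 lay within the controls. Its log2 difference was -0.37 (SE 0.13, edgeR adjusted p = 0.554). MRPS14 had a log2 difference of -0.29 (SE 0.15) with siCIP2A#3, MRPL15 of 0.22 (SE 0.10), MRPL22 of 0.19 (SE 0.12) and MRPL23 of 0.41 (SE 0.26), the last larger in size than MRPL40 with a wider SE.

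**Figure D3:**
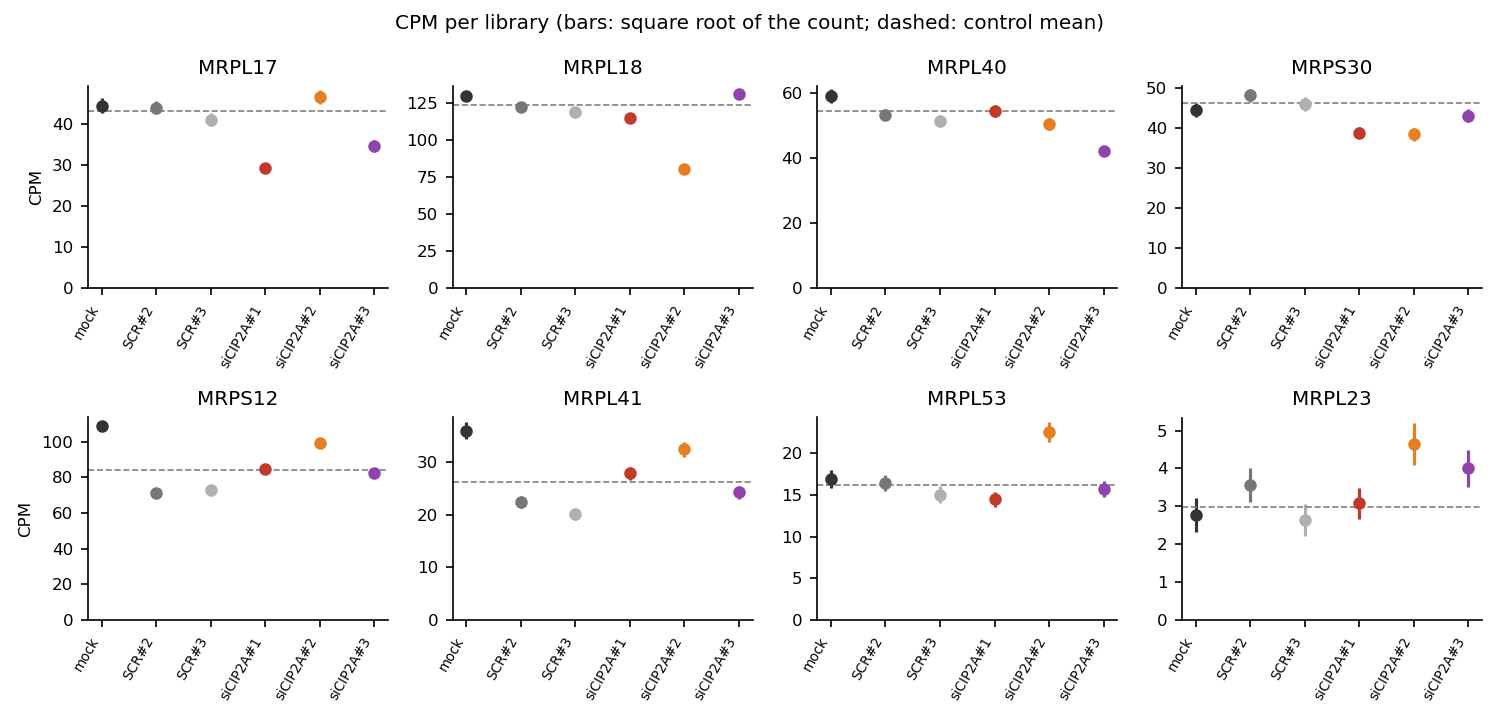
CPM in each of the 6 libraries for 8 members, with bars for the square root of the count (counting error only) and a dashed line at the control mean. MRPL17 is low with siCIP2A#1 (29.3 CPM) and siCIP2A#3 (34.8), MRPL18 is low with siCIP2A#2 alone (80.6), and MRPS12 and MRPL41 are highest in the mock.

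The siRNAs were also compared with each other in 3 pairs, with p-values adjusted over all tested genes of each pair. No member was called in any pair, beside 0.0147% of all tested genes for siCIP2A#1 against siCIP2A#2, 0.509% for siCIP2A#1 against siCIP2A#3 and 0% for siCIP2A#2 against siCIP2A#3. At an unadjusted p under 0.05, edgeR gave 4, 2 and 7 members (5.26%, 2.63% and 9.21%), against 12.1%, 13.6% and 15.6% of all tested genes. DESeq2 called 0, 0 and 1 members, beside 0.656%, 1.06% and 0.708% of all tested genes. Each pair sets 1 library against 1, so that the spread in these tests comes from the controls alone and the siRNA and its library cannot be told apart. MRPL18 was lower with siCIP2A#2 than with siCIP2A#3 by a log2 difference of -0.70 (SE 0.13, 95% interval -0.996 to -0.402, edgeR adjusted p = 0.123). DESeq2 called this difference (adjusted p = 0.0149). MRPL17 differed between siCIP2A#1 and siCIP2A#2 by -0.67 (SE 0.15, 95% interval -1.01 to -0.32, edgeR adjusted p = 0.172). With GC and length offsets edgeR called this difference (-0.68, adjusted p = 0.00854) and that of MRPL18 in the same pair (0.54, adjusted p = 0.00854). MRPS2 of the small subunit, named after its values were seen, had the largest difference between siCIP2A#1 and siCIP2A#3, at -0.47 (SE 0.19, edgeR adjusted p = 0.346), and was called with these offsets (-0.56, adjusted p = 0.00675). MRPS2 stood at 77.9 CPM with siCIP2A#1 and 108 CPM with siCIP2A#3, and its controls ran from 84.3 to 111 CPM. In both pairs the fit with offsets called a larger share of all tested genes than of members. For 55, 60 and 53 of 76 members the interval lay within a 1.5-fold change. Over all 13562 tested genes it did so for 5970, 6023 and 5514. For the other members a difference of that size between siRNAs was not bounded by these libraries.

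The controls themselves were not alike. With the non-targeting siRNAs set against the mock, the members had a median log2 difference of -0.10, with 54 of 76 below 0, while the median over all tested genes was 0.0023. No member was called by edgeR, beside 0% of all tested genes, nor by DESeq2 or limma-voom. At an unadjusted p under 0.05, edgeR gave 8 members (10.5%), against 6.31% of all tested genes. The mock lay above both non-targeting libraries for 50 members (65.8%), against 40.5% of all tested genes, and below both for 15 members (19.7%), against 40% of all. It was the highest of all 6 libraries for 35 of 76 members, against 17.6% of all tested genes. Only 1 mock library was made, so the mock condition and that library cannot be told apart.

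MRPS12 (chr19:38930944-38933168, plus strand), a protein of the decoding centre, stood at 109 CPM in the mock, 71.2 with SCR#2 and 72.9 with SCR#3, and between 82.2 and 99.3 CPM with the CIP2A siRNAs. The mock was the highest and the non-targeting siRNAs were the lowest of the 6 libraries. The log2 difference between non-targeting siRNAs and mock was -0.59 (SE 0.14, edgeR adjusted p = 0.610). MRPL41 (chr9:137551879-137552555, plus strand), a mitochondrion-specific protein also described as promoting apoptosis, followed the same order with 36.0 CPM in the mock, 22.5 with SCR#2 and 20.1 with SCR#3, and 24.3 to 32.5 CPM with the CIP2A siRNAs. Its log2 difference was -0.75 (SE 0.19, edgeR adjusted p = 0.610). MRPL38 stood at 85.3, 59.5 and 63.9 CPM in the mock, SCR#2 and SCR#3 and had a log2 difference of -0.47 (SE 0.13), and MRPL34, named after its values were seen, had one of -0.52 (SE 0.16). In the other direction, MRPS10 had a log2 difference of 0.17 (SE 0.13), MRPL19 of 0.15 (SE 0.13) and MRPL42 of 0.15 (SE 0.12).

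**Figure D4:**
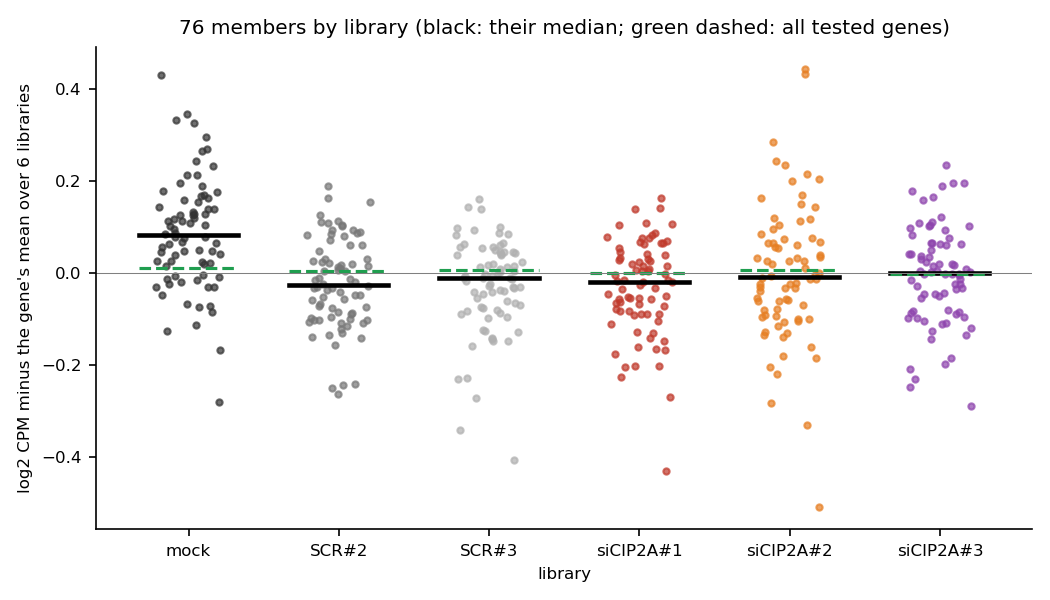
Log2 CPM of each of 76 members minus its mean over the 6 libraries, with 1 point per member, a black line at the median of the members and a green dashed line at the median of all 13562 tested genes. The median of the members is 0.08 in the mock and between -0.03 and 0.00069 in the other libraries.

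GC content of the transcripts moved with this difference. Over the 76 members the Spearman correlation between GC content and the log2 difference, non-targeting siRNAs minus mock, was -0.71, and over 12955 tested genes it was -0.61. These correlations run across genes of the same libraries, all share the mock, and genes are not independent replicates. The 19 members of lowest GC content (35.0% to 43.1%) had a median log2 difference of 0.04, and the next 19 had -0.06. The third set of 19 had a median of -0.13, and the 19 richest (55.4% to 71.9% GC) had -0.24. All tested genes in the same GC ranges had medians of 0.14, 0.05, -0.05 and -0.23, so that the members lay below them in each range, by least in the richest. With offsets for GC content and length the median of the members was -0.07. For siCIP2A#2 against the controls the Spearman correlation with GC content was 0.45 over the members and 0.40 over all tested genes. For siCIP2A#1 and siCIP2A#3 it was 0.0038 and -0.06 over the members, and 0.14 and -0.08 over all tested genes. The part of GC content in the single values was not tested beyond these offsets.

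**Figure D5:**
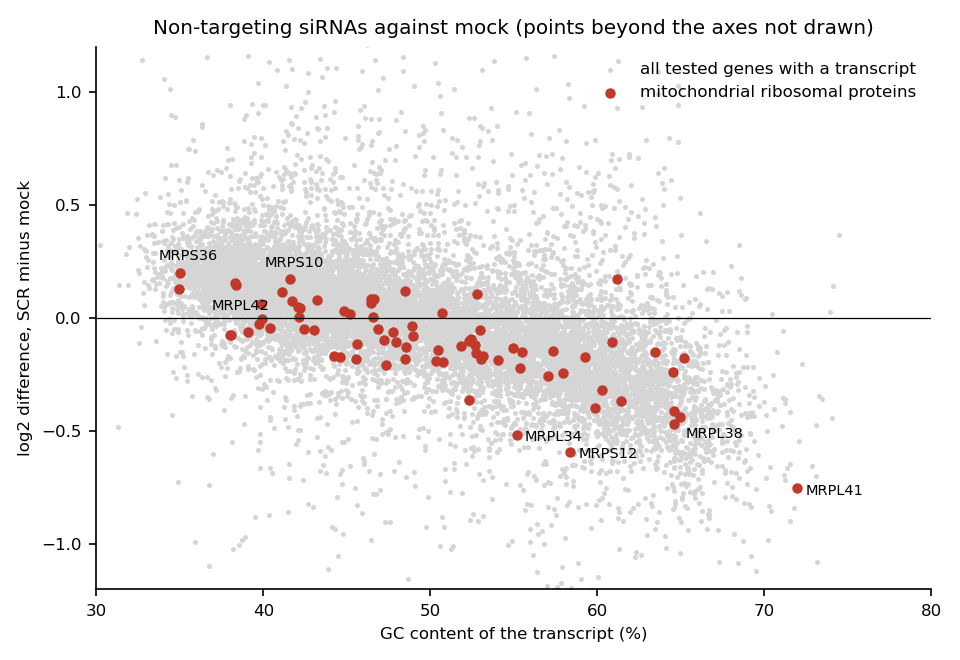
Log2 difference between the 2 non-targeting siRNAs and the mock against the GC content of the longest protein-coding transcript, for 76 members (red) and all tested genes with a transcript (grey). Members of high GC content lie lowest, with MRPL41 at -0.75 and MRPS12 at -0.59, while MRPS10 and MRPL42 lie above 0.

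The sign of the small medians differed with the controls used. With the mock as a level of its own, the median log2 difference of the members for the 3 CIP2A siRNAs was 0.01, and without the mock it was also 0.01, against -0.02 with all 3 controls. The SD of the members' median over the 3 controls was 0.06, larger than any of these medians. Without the mock, single siRNAs were tested with 1 residual degree of freedom, from SCR#2 and SCR#3 alone. In that fit edgeR called 7, 14 and 4 members for siCIP2A#1, siCIP2A#2 and siCIP2A#3 (9.21%, 18.4% and 5.26% of members), beside 13.8%, 22.4% and 9.65% of all genes tested there. The share of members was below that of all genes each time.

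The other genes of mitochondrial translation were taken from 5 lists that hold ribosome proteins with other names, assembly factors, translation factors, genes for the synthesis and processing of mitochondrial RNA, and regulators of mitochondrial biogenesis. In the main comparison no gene of these lists passed. Ribosome proteins with other names (6 tested) had a median log2 difference of 0.0060. DAP3, a GTP-binding protein of the small subunit, had a log2 difference of -0.05 (SE 0.08), ICT1, a rescue hydrolase built into the large subunit, of -0.18 (SE 0.11), and GADD45GIP1 of 0.16 (SE 0.12). Assembly factors (32 tested) had a median of -0.03, with 20 below 0. The ribosomal RNA methyltransferase gene TFB1M lay between 27.3 and 29.9 CPM in the controls and between 24.2 and 25.1 CPM with the siRNAs, a log2 difference of -0.23 (SE 0.11, edgeR adjusted p = 0.999), and MPV17L2 had one of 0.25 (SE 0.15).

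Translation factors (18 tested of 19) had a median log2 difference of -0.05, and 16 of 18 lay below 0, beside 50.3% of all tested genes. With siCIP2A#1, siCIP2A#2 and siCIP2A#3 alone, 12, 12 and 10 of 18 lay below 0. TUFM, the mitochondrial elongation factor Tu, had a log2 difference of -0.08 (SE 0.09), MTRF1, a release factor, of -0.25 (SE 0.15), GFM2, a ribosome recycling factor, of -0.13 (SE 0.10), and LRPPRC, which stabilises mitochondrial messages, of -0.09 (SE 0.10). Genes for the synthesis and processing of mitochondrial RNA (25 tested) had a median of -0.01. TFAM, which packages and transcribes mitochondrial DNA, differed by 0.01 (SE 0.10), and the transfer RNA modifier TRMU by 0.23 (SE 0.14). Regulators of biogenesis (10 tested) had a median of 0.03. NRF1 differed by -0.12 (SE 0.11), GABPA by 0.01 (SE 0.11), YY1 by 0.02 (SE 0.08), ESRRA by 0.09 (SE 0.14), PPARGC1A by 0.05 (SE 0.18) and PPARGC1B by 0.15 (SE 0.19). The sign for GABPA and PPARGC1A turned with the mock as a separate level.

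GRSF1, an RNA-binding protein of mitochondrial RNA granules that takes part in ribosome assembly, was the only gene of these lists that passed in a single-siRNA comparison. It stood at 144 CPM in the mock, 144 with SCR#2 and 142 with SCR#3, against 73.9 with siCIP2A#1, 144 with siCIP2A#2 and 130.0 with siCIP2A#3. The library with siCIP2A#1 stood alone. The log2 difference of GRSF1 with siCIP2A#1 was -0.96 (SE 0.10, edgeR adjusted p = 0.0270), a call that every alternative run for it kept, with an adjusted p of at most 0.0306. It was also lower with siCIP2A#1 than with siCIP2A#3 (log2 difference -0.81, SE 0.12, edgeR adjusted p = 0.0414). Over all 3 siRNAs its log2 difference was -0.31 (SE 0.19), which did not pass. The members themselves had a median log2 difference of -0.04 in the library where GRSF1 was low, against -0.0063 over all tested genes. The part of GRSF1 in the values of the members was not tested.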

How the data were processed

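Poly(A) RNA was made into stranded TruSeq mRNA libraries, per the labels' protocols. The authors deposited raw read counts per gene for the 6 libraries, per the file headers. The submitters' processing notes name bcl2fastq 2.17, STAR 2.5.4b, Subread 1.5.1 and build hg38. For the gene annotation and the strand setting, the sources used here give nothing. Of 51 symbols that a spreadsheet had turned into dates, 50 were restored from gene identifiers.

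Counts were filtered with edgeR's filterByExpr (minimum count 10), scaled with TMM factors and fitted with glmQLFit and glmQLFTest (edgeR 4.0.16, limma 3.58.1, R 4.3.3) over all 13562 genes that passed. Calls used a Benjamini-Hochberg adjusted p under 0.05. The fits left 4 residual degrees of freedom for the main comparison, 2 for single siRNAs and 3 for the non-targeting siRNAs against the mock. Library plots used log2 CPM with a prior count of 2. Transcript length and GC content came from GENCODE 29 and were known for 95.5% of tested genes. The scripts were tested on simulated data. Within groups, no pair of libraries agreed within sampling noise (chi-square per degree of freedom of 3.10 or more). An exact permutation test of 3 against 3 libraries cannot give a p under 0.1 and was not used.

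The members and lists were chosen with earlier results of these data known. Named genes are CIP2A, members called, the 6 members of smallest p in each direction in the main comparison, 3 in each direction for single siRNAs and for the controls, the 5 highest and 5 lowest levels, the member not tested, 2 genes of smallest p in each other list, and fixed regulators and factors. Alternatives were other library factors, DESeq2 1.42.0, limma-voom, other filters, a replicate block, the mock as its own level, each library left out, and, added after the data were seen, GC and length offsets and further alternatives for the pairs, the controls, the levels and GRSF1.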

Additional observations from a re-analysis of the deposited data

Results flagged for a closer look

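A test of the difference between 2 siRNAs passed for 2 of the genes named. Each such test sets 1 library against 1, with its spread taken from the controls alone. CIP2A was lower with siCIP2A#1 than with siCIP2A#2 by a log2 difference of -1.49 (edgeR adjusted p = 0.0302). GRSF1 was lower with siCIP2A#1 than with siCIP2A#3 by a log2 difference of -0.81 (edgeR adjusted p = 0.0414). The siRNA and its library therefore cannot be told apart. No member of the mitochondrial ribosome passed in the edgeR fit as reported. Members called in pairs under some alternatives included MRPL17, MRPL18 and MRPS2, and further members were called in pairs without the mock.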

How the results depend on the processing

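In the main comparison 0 members were called under every alternative run, and the median log2 difference of the members stayed between -0.05 and 0.01. After centring within groups, same-numbered libraries had correlations of -0.12, -0.13 and 0.0082, and the other pairs ran from -0.0733 to 0.164. Each library also had its own treatment, so these values cannot show whether replicate numbers pair the libraries. With a replicate block the median was -0.03 and 0 members were called. GABPA (-0.0725) and PPARGC1A (-0.0566) changed sign with the mock as a separate level. With single libraries left out, values ran from -0.0728 to 0.0704 for GABPA, from -0.0678 to 0.18 for PPARGC1A, from -0.0513 to 0.0963 for TFAM, from -0.0154 to 0.19 for ESRRA, from -0.0713 to 0.27 for PPARGC1B and from -0.0036 to 0.0531 for YY1. For single siRNAs, leaving out a control gave 0 to 7 called members for siCIP2A#1, 0 to 14 for siCIP2A#2 and 0 to 4 for siCIP2A#3. It gave 0 to 7 for siCIP2A#1 against siCIP2A#2, 0 to 5 for siCIP2A#1 against siCIP2A#3 and 0 to 11 for siCIP2A#2 against siCIP2A#3. The highest count came without the mock each time, with 1 residual degree of freedom, where 16.7%, 18% and 22% of all genes were called in the pairs, against 9.21%, 6.58% and 14.5% of members. In addition, 1 member was called for siCIP2A#2 against siCIP2A#3 without SCR#2, beside 1.01% of all genes. GC and length offsets gave 1 called member for siCIP2A#1, 1 for siCIP2A#2, 2 for siCIP2A#1 against siCIP2A#2, 1 for siCIP2A#1 against siCIP2A#3 and 1 for siCIP2A#2 against siCIP2A#3, beside 3.47%, 1.83%, 4.42%, 7.11% and 5.38% of all tested genes. DESeq2 and the fit with no filter each gave 1 for siCIP2A#2 and 1 for siCIP2A#2 against siCIP2A#3, where the fit with no filter called 0.57% and 1.1% of all genes. MRPL42 had a log2 difference of -0.0344 between non-targeting siRNAs and mock with these offsets. The median level of the members per kilobase was 83.4 CPM by coding length, 28.8 by the longest transcript of any type and 20.4 by the union of exons. The cause of these changes was not tested.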
